A study of Homo sapiens with 6 samples.

Results

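The MYC, MAX and MXD network was examined as a list of 10 named genes: MYC, its partner MAX, the repressors MXD1, MXI1, MXD3, MXD4, MNT and MGA, and the Mondo branch with MLX and MLXIP. All 10 were found among the 12486 genes of the expression table, and all 10 passed the filter on low values. RNA-seq had been performed on K562, an established human line from chronic myeloid leukemia with the Bcr-Abl oncogene. Each group had 3 libraries. The control cells stably expressed an shRNA against luciferase (sh-luc). The other cells stably expressed an shRNA against lncRNA-IUR1 (sh-IUR1), a transcript that the sample labels call lncRNA-up91 (sh-up91). Both shRNAs were delivered by lentivirus, the methods give 1 shRNA sequence for the human target, and neither imatinib nor another drug is named for these samples. Whether the stable cells were a clone or a pool is not given in the sources used here. In each group 1 library carries no replicate number and the others are r1 and r2. The comparison asked which RNA levels differed when lncRNA-IUR1 was knocked down. The RNA of lncRNA-IUR1 was not analysed here, and the strength of the knockdown is therefore not known from these values.

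MYC is a basic helix-loop-helix leucine zipper transcription factor that binds DNA as a dimer with MAX, most strongly at the E-box CACGTG, and activates genes for ribosome production, metabolism and cell division. The MXD proteins, MNT and MGA also dimerise with MAX and occupy E-boxes, but they repress: the MXD proteins and MNT recruit the SIN3 and histone deacetylase corepressor, and MGA belongs to a Polycomb complex, PRC1.6. MLX is a MAX-like partner that pairs with MXD1, MXD4 and MNT and with the Mondo factors, among them the glucose sensor MLXIP (MondoA). Signalling from Bcr-Abl is known to sustain MYC expression in leukemia cells.

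The E-box was searched in promoter windows from RefSeq (GRCh38.p14), each reaching from 250 bases before to 50 bases after a transcription start. The letters CACGTG read the same on both strands. Windows were found for 9 of the 10 members, all but MYC, and 3 of the 9 genes held the motif, MXD4, MNT and MLX. Of the 14 member windows 3 (21.4%) held it, and of all 35116 windows 2548 (7.26%) did. The runs are shown because they hold the letters to which the network's own dimers bind, with the E-box in capitals and the gene's strand read 5′ to 3′.
MXD4: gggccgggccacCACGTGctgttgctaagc
MNT: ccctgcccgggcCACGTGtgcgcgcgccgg
MLX: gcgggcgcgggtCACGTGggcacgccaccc
The MXD4 run lies on the minus strand at chr4:2262330-2262359, and its E-box begins 238 bases before the start. The MNT run lies on the minus strand at chr17:2401236-2401265, and its E-box begins 193 bases before the start. The MLX run lies on the plus strand at chr17:42567038-42567067, with the E-box 50 bases before the start. A match is a description of the letters in the window and was not tested as a binding site.

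Expression is given in FPKM, fragments normalised for transcript length and for library size, which is a level per length and can be set side by side between genes. Summed over the listed genes, the FPKM came to between 579820 and 606240 per library, which is not a sequencing depth. The depth behind each value is unknown. All 10 K562 markers searched were listed, among them the fetal globins HBG1 and HBG2 and the erythroid factor GATA1, with a summed level of 5180 to 6730 FPKM in sh-luc and 5060 to 5660 FPKM in sh-IUR1. Of 14 markers of other cell types 8 were listed, with a summed level of 405 to 430 FPKM in sh-luc and 407 to 418 FPKM in sh-IUR1. Most of that was the keratin KRT8, at 348.49 to 375.32 FPKM, and their part in the results was not tested. The lowest correlations between libraries involved the unnumbered sh-luc library. Pearson's r of log2(FPKM + 1) over the genes tested was between 0.9903 and 0.9962 for its pairs with the other libraries. For the pairs without it, r was between 0.9955 and 0.9984. These ranges overlapped: its pair with sh-IUR1 r2 (0.9962) was above the pair of sh-IUR1 r1 and r2 (0.9955). The fold change of each member is therefore given with and without the unnumbered sh-luc library.

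None of the 10 members was called different between sh-IUR1 and sh-luc. The test was limma on log2(FPKM + 1) over the 12276 genes that averaged 0.1 FPKM or more, adjusted for all of them (Benjamini-Hochberg). At an adjusted p-value under 0.05, 0 members were called higher and 0 lower, where the background over all genes was 0% in each direction. At an unadjusted limma p-value under 0.05 there were again 0 members with all 6 libraries, against 325 of 12276 genes (2.65%). An unmoderated linear model also gave 0 members, the smallest of its unadjusted p-values for a member being 0.0694. The adjusted p-values of the members lay between 0.930 and 0.999, and the smallest over all genes was 0.930. In log2 fold change of FPKM + 1, 6 members were above 0 and 4 below, with a median of 0.032, beside 58% of all genes above 0 and a median of 0.0186. The median absolute log2 fold change was 0.081 for the members and 0.062 for all genes. The 95% intervals of the 10 differences reached from -0.33 at the lowest, for MXD3, to 0.35 at the highest, for MLXIP. For each member, differences inside its own interval are not excluded by these libraries.

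**Figure D1:**
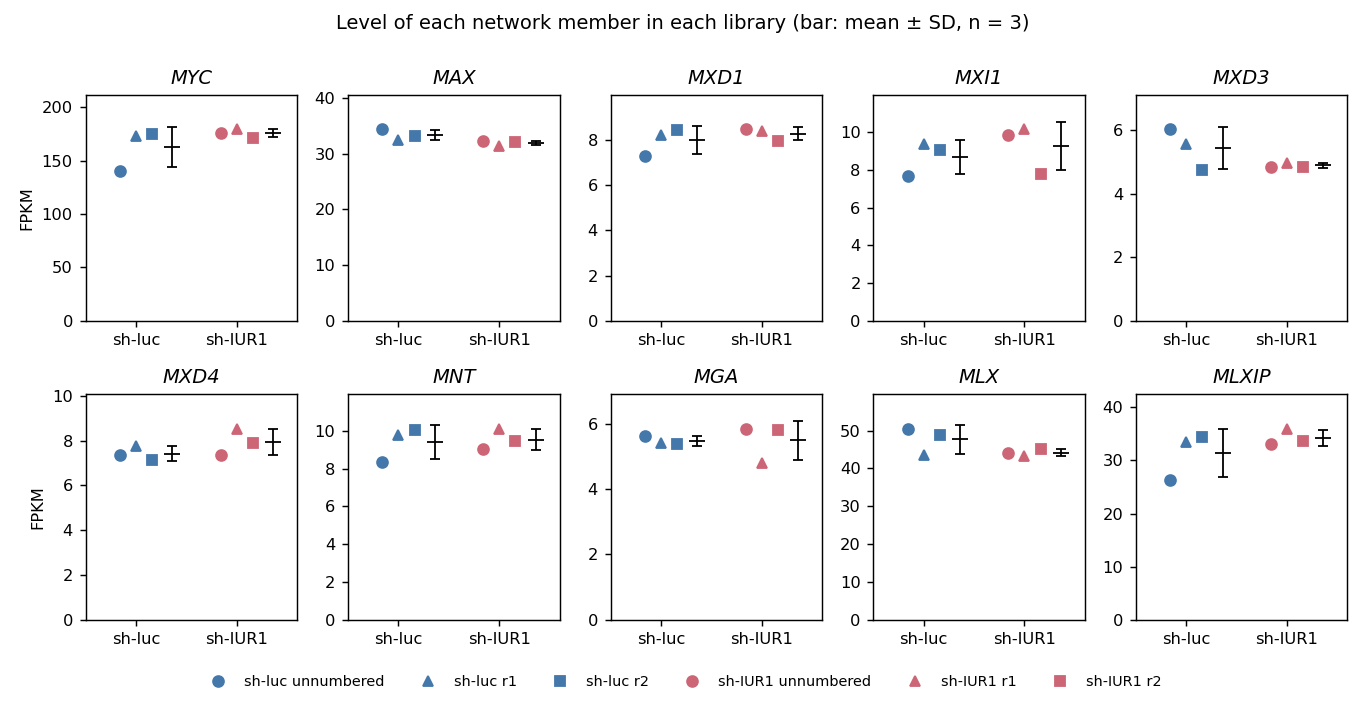
FPKM of the 10 network members in each library, with sh-luc in blue and sh-IUR1 in red, the marker shape giving the replicate (unnumbered, r1, r2) and the black bar the mean ± SD of 3 libraries. Each vertical axis starts at 0, and the unnumbered sh-luc library (blue circle) is the lowest point for 5 genes and the highest for 3.

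MYC (gene identifier 4609, chromosome 8) was by far the most abundant member, at rank 476 of the 12276 genes by mean level. In the order unnumbered, r1 and r2, which is kept below, it measured 140.81, 172.99 and 174.75 FPKM in sh-luc and 176.13, 179.32 and 171.72 FPKM in sh-IUR1. The unnumbered sh-luc library was low, 19.5% below the mean of the other 5, and those 5 lay between 171.72 and 179.32 FPKM with the groups intermixed. The means were 163.0 ± 19.1 FPKM in sh-luc and 176.0 ± 3.82 FPKM in sh-IUR1 (SD, n = 3). The log2 fold change was 0.12 (standard error 0.082, 95% interval -0.067 to 0.30), with an adjusted p-value of 0.930 from limma. Without the unnumbered sh-luc library it was 0.015 (95% interval -0.10 to 0.13, adjusted p = 1.0 from limma). The difference between the groups was thus within the spread between libraries, and most of its size came with 1 control library. In bulk RNA, fewer cells that express a gene and less of its RNA per cell cannot be told apart.

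MAX, the partner that MYC and the repressors share (chr14:65006101-65102695), was the steadiest member, with a coefficient of variation over the 6 libraries of 3.10%. It was at 34.35, 32.54 and 33.19 FPKM in sh-luc and at 32.25, 31.43 and 32.11 FPKM in sh-IUR1. Every sh-IUR1 library lay below every sh-luc library, by a narrow margin, with the unnumbered sh-luc library the highest. MAX was the 1 member whose groups did not overlap, and over all genes the share lying below in this way was 3.03% (7.07% in either direction). The means were 33.4 ± 0.917 and 31.9 ± 0.439 FPKM (SD, n = 3), a log2 fold change of -0.061 (standard error 0.0586, 95% interval -0.19 to 0.07, adjusted p = 0.930 from limma). A two-sided exact permutation test gave p = 0.1, the smallest that 3 libraries against 3 allow. Groups that do not overlap always reach this p, so it adds nothing to the separation itself. In the same test every other member had a p of 0.3 or more. Without the unnumbered sh-luc library the log2 fold change of MAX was -0.04.

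The level of MYC RNA was between 4.10 and 5.71 times that of MAX. Per library the ratio was 4.10, 5.32 and 5.27 for sh-luc and 5.46, 5.71 and 5.35 for sh-IUR1. The sh-luc r1 and sh-IUR1 r2 libraries were nearly level, and the groups did not overlap, as for MAX itself. The groups overlapped for every other ratio or sum formed from the members, and no background share was computed for ratios. The MYC to MAX ratio is a description of the libraries and no test was made of it.

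The 4 MXD repressors, most of which are known to be switched on as cells leave the cycle and differentiate, were present at low and similar levels. MXD1 (chr2:69915109-69942945) was at 7.31, 8.24 and 8.45 FPKM in sh-luc and at 8.47, 8.41 and 7.95 FPKM in sh-IUR1. Its lowest value was again in the unnumbered sh-luc library, 12% below the mean of the others, and the other libraries were intermixed. The log2 fold change was 0.045 (standard error 0.0808, adjusted p = 0.949 from limma), and without the unnumbered sh-luc library it was -0.011.

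MXI1 (chr10:110207605-110287365), also called MXD2 and an antagonist of MYC, varied most between libraries, with a coefficient of variation of 11.6%. It was at 7.67, 9.37 and 9.03 FPKM in sh-luc and at 9.85, 10.14 and 7.78 FPKM in sh-IUR1. The low libraries were 1 from each group, unnumbered sh-luc and sh-IUR1 r2. The other sh-IUR1 libraries lay above every sh-luc library, so the groups overlapped through sh-IUR1 r2. The log2 fold change was 0.078 (standard error 0.110, 95% interval -0.17 to 0.33, adjusted p = 0.940 from limma). It was 0.00021 without the unnumbered sh-luc library and 0.19 without sh-IUR1 r2.

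MXD3 (chr5:177305499-177312752), which unlike its relatives is known to be expressed in dividing cells, went the other way in the unnumbered sh-luc library. It was at 6.02, 5.56 and 4.74 FPKM in sh-luc and at 4.83, 4.98 and 4.85 FPKM in sh-IUR1. The unnumbered sh-luc library was the highest, 20.6% above the mean of the others, while sh-luc r2 was the lowest of the 6. The sh-IUR1 libraries were close together (SD 0.0814 FPKM, against 0.648 FPKM in sh-luc, n = 3). The log2 fold change was -0.13 (standard error 0.0918, 95% interval -0.33 to 0.08, adjusted p = 0.930 from limma), and -0.06 without the unnumbered sh-luc library.

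MXD4 (chr4:2247432-2262109), the MXD gene with an E-box in its window, was at 7.36, 7.77 and 7.13 FPKM in sh-luc and at 7.36, 7.91 and 8.54 FPKM in the unnumbered, r2 and r1 libraries of sh-IUR1. The sh-IUR1 r1 library was the highest and the groups overlapped. Its log2 fold change of 0.085 (standard error 0.0816, adjusted p = 0.930 from limma) was 0.08 without the unnumbered sh-luc library, 0.036 without sh-IUR1 r1 and 0.13 without the unnumbered sh-IUR1 library.

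Taken as a sum, MXD1, MXI1, MXD3 and MXD4 reached 28.4, 30.9 and 29.3 FPKM in sh-luc and 30.5, 32.1 and 28.5 FPKM in sh-IUR1. The summed level thus ranged from 28.4 to 32.1 FPKM, and its make-up differed as well. MXD3 was 21.2% of the sum in the unnumbered sh-luc library and between 15.5% and 18.0% in the other 5. MXI1 was between 27.0% and 32.3%.

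MNT (chr17:2384073-2401060) is the broadly expressed MAX partner that is thought to oppose MYC in growing cells. It was at 8.37, 9.79 and 10.06 FPKM in sh-luc and at 9.03, 10.11 and 9.45 FPKM in sh-IUR1, with the unnumbered sh-luc library lowest and the rest intermixed. Its log2 fold change was 0.02 (standard error 0.088, 95% interval -0.18 to 0.22, adjusted p = 0.974 from limma). Without the unnumbered sh-luc library it was -0.054 and with quantile normalization -0.016, and its direction is therefore not fixed by these data. With MNT added to the MXD genes, MYC was between 3.83 and 4.53 times the summed repressors, at 3.83, 4.25 and 4.43 for sh-luc and 4.45, 4.25 and 4.53 for sh-IUR1.

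MGA (chr15:41621224-41769940), a very large MAX partner that also carries a T-box DNA-binding domain, was at 5.63, 5.41 and 5.37 FPKM in sh-luc and at 5.85, 4.81 and 5.80 FPKM in sh-IUR1. Both the highest and the lowest value were in sh-IUR1. The unnumbered sh-luc library was inside that range, and the log2 fold change had a 95% interval of -0.20 to 0.20 (adjusted p = 0.999 from limma). Without the unnumbered sh-luc library the log2 fold change was 0.018, and without sh-IUR1 r1, the low library, it was 0.077.

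**Figure D2:**
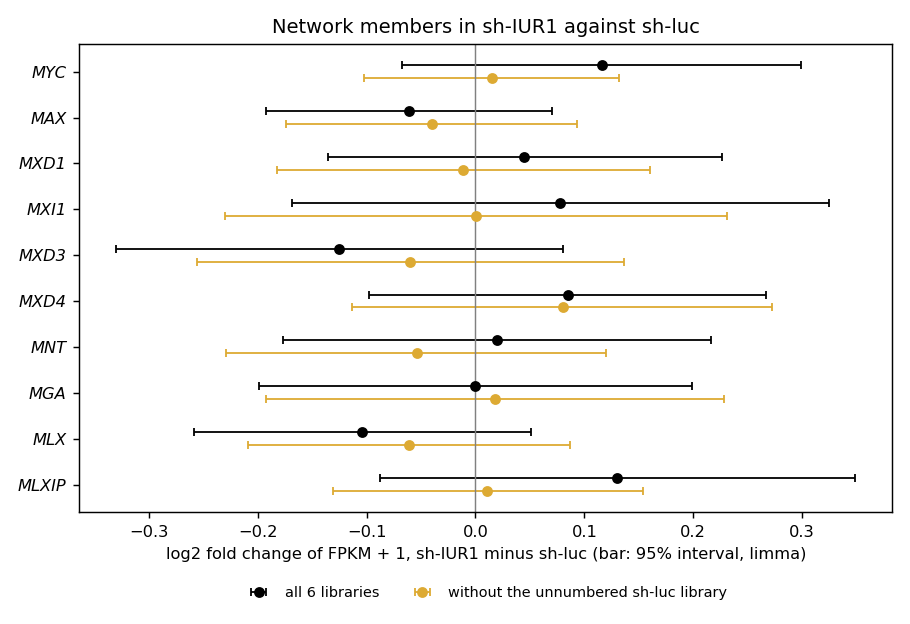
Log2 fold change of FPKM + 1, sh-IUR1 minus sh-luc, for each member, with the 95% interval from limma, for all 6 libraries (black) and without the unnumbered sh-luc library (yellow). Every interval spans 0, and the yellow points of MYC, MXI1 and MLXIP sit at 0.015, 0.00021 and 0.011.

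In the Mondo branch neither partner was called. MLX (chr17:42567100-42573203) was at 50.5, 43.45 and 48.94 FPKM in sh-luc and at 44.04, 43.26 and 45.22 FPKM in sh-IUR1. Here 2 control libraries, unnumbered and r2, were higher than the rest, and sh-luc r1 lay among the sh-IUR1 libraries. The log2 fold change of -0.10 (standard error 0.0691, 95% interval -0.26 to 0.051) had the smallest unadjusted p-value of the 10, 0.165 in limma (adjusted p = 0.930). Without the unnumbered sh-luc library it was -0.061. Without sh-luc r1, the low control, it was -0.17, with an unadjusted limma p-value under 0.05 and an adjusted p-value of 0.667.

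MLXIP (chr12:122078756-122147344), which moves to the nucleus when glucose phosphates are plentiful, was at 26.28, 33.40 and 34.49 FPKM in sh-luc and at 33.03, 35.99 and 33.70 FPKM in sh-IUR1. It was the member on which the unnumbered sh-luc library stood farthest out, 23.0% below the mean of the others, which lay between 33.03 and 35.99 FPKM. Its log2 fold change, 0.13 (standard error 0.0978, 95% interval -0.088 to 0.35, adjusted p = 0.930 from limma), was the highest of the 10, and without that library it was 0.011. The ratio of MLXIP to MLX was 0.520 in the unnumbered sh-luc library and between 0.705 and 0.832 in the other 5.

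Of 7 genes listed as driven by MLXIP and MLX, 5 were lowest in the unnumbered sh-luc library, beside 37.5% of all genes, and HK2 and PFKFB3 were not. TXNIP, which restrains glucose uptake and is the best known MLXIP target, was at 137.6, 299.46 and 266.18 FPKM in sh-luc and at 314.38, 313.55 and 269.9 FPKM in sh-IUR1. ARRDC4, a related arrestin, was at 8.01, 21.54 and 18.06 FPKM in sh-luc and at 24.82, 26.6 and 16.36 FPKM in sh-IUR1. KLF10, a zinc finger repressor, was at 12.17, 24.82 and 21.82 FPKM and at 27.29, 27.51 and 21.5 FPKM. For these 3 genes the unnumbered sh-luc library was the lowest by a wide margin and the other control libraries lay inside or near the sh-IUR1 range. The log2 fold changes were 0.42 for TXNIP, 0.56 for ARRDC4 and 0.41 for KLF10, each at an adjusted p of 0.930 in limma, and without the unnumbered sh-luc library they were 0.08, 0.16 and 0.12. All 7 genes of this list were tested, 0 were called, 5 were above 0 and 2 below, and the median log2 fold change was 0.055 (0.028 without that library), beside 0.0186 for all genes. HK2, the hexokinase of rapidly growing cells, was at 14.76, 12.46 and 13.37 FPKM in sh-luc and at 11.89, 11.5 and 13.74 FPKM in sh-IUR1. Its highest value was in the unnumbered sh-luc library (log2 fold change -0.12, adjusted p = 0.930 from limma, and -0.06 without that library). PFKFB3, which makes an activator of glycolysis, was at 7.42, 7.7 and 8.35 FPKM and at 7.87, 8.33 and 7.15 FPKM, with sh-IUR1 r2 the lowest. The E-box letters were in the promoter windows of ARRDC4, HK2, PFKFB3 and PKLR, 4 of the 6 genes with a window, and in neither window of TXNIP, nor of ARRDC2, beside 12.9% of tested genes with a window. ARRDC4 is shown because its log2 fold change was the highest of the list, and its E-box begins 210 bases before the start (plus strand, chr15:97960481-97960510).
ARRDC4: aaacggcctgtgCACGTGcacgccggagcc

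**Figure D3:**
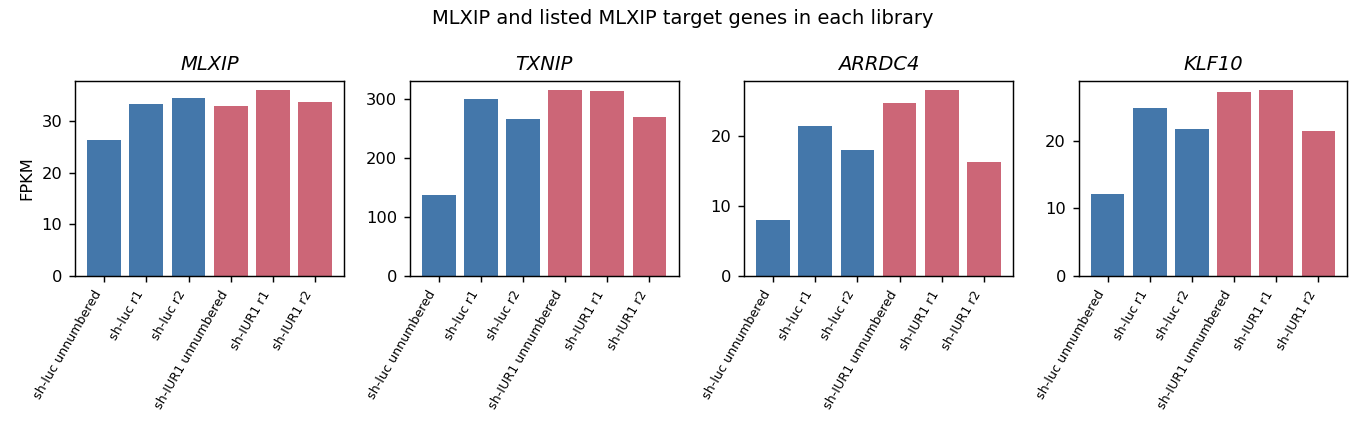
FPKM of MLXIP and of TXNIP, ARRDC4 and KLF10 in each of the 6 libraries, with sh-luc in blue and sh-IUR1 in red and every axis starting at 0. The first bar of each panel, the unnumbered sh-luc library, is the lowest, at 26.28 FPKM for MLXIP and 137.6 FPKM for TXNIP.

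By level the members fell into 5 tiers. MYC had a mean over the 6 libraries of 169.0 FPKM, 3.69 times that of MLX at 45.9 FPKM, and MLX was above MLXIP in 6 of 6 libraries. MLXIP (32.8 FPKM) and MAX (32.6 FPKM) could not be ordered: MLXIP was the higher in 5 libraries and MAX in the unnumbered sh-luc library. After a step of 3.45 times came MNT (9.47 FPKM), MXI1 (8.97 FPKM), MXD1 (8.14 FPKM) and MXD4 (7.68 FPKM), whose ranges overlapped from each to the next. MGA (5.48 FPKM) and MXD3 (5.16 FPKM) were the lowest, below MXD4 in every library and in either order between themselves in 3 of 6.

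The groups overlapped for every member but MAX, and 8 of the 10 members fell into 2 opposite sets. In the unnumbered sh-luc library MYC, MLXIP, MNT, MXD1 and MXI1 were at their lowest and MAX, MLX and MXD3 at their highest. That library was thus at an end of the range for 8 of 10 members, beside 61.2% of all genes tested, and the sh-IUR1 r1 library was at an end for 8 as well, beside 48% of all genes. These 2 libraries were at opposite ends for 6 members, beside 30.8% of all genes. The pattern was noticed in these data and no test was made of it. Without the unnumbered sh-luc library the median absolute log2 fold change was 0.029 for the members and 0.047 for all genes, with 5 members above 0. The coefficient of variation over the 6 libraries was between 3.10% and 11.6% for the members and 7.58% at the median of the 10632 genes that averaged 1 FPKM or more.

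The closest relatives of the members were looked at next. MYCL, a paralogue of MYC, was at 3.8, 7.83 and 6.79 FPKM in sh-luc and at 8.39, 9.79 and 6.02 FPKM in sh-IUR1. It was lowest in the unnumbered sh-luc library too, with a log2 fold change of 0.37 (standard error 0.219, adjusted p = 0.930 from limma) that was 0.11 without that library. MLXIPL (ChREBP), the relative of MLXIP in liver, was at 5.02 ± 0.861 and 5.53 ± 0.543 FPKM (SD, n = 3), a log2 fold change of 0.12 that was 0.021 without the unnumbered sh-luc library. MYCN was not analysed here.

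Genes that act with the network or under it were read from 8 further lists, including that of the MLXIP and MLX targets, and 0 genes of any list passed an adjusted p-value of 0.05 in limma. At an unadjusted limma p-value under 0.05, NDRG1 was the 1 gene in these lists, beside 2.65% of all genes tested. Of the 15 MYC cofactors 13 were above 0 and 2 below, with a median log2 fold change of 0.032, and 8 of 15 were above 0 without the unnumbered sh-luc library. ZBTB17 (MIZ1), through which MYC represses genes, was at 12.5 ± 2.32 FPKM in sh-luc and 15.1 ± 1.02 FPKM in sh-IUR1 (SD, n = 3, log2 fold change 0.26, adjusted p = 0.930 from limma, and 0.12 without the unnumbered sh-luc library). ACTL6A, an actin-like subunit of chromatin complexes, was at 38.8 ± 4.01 and 34.5 ± 4.30 FPKM (log2 fold change -0.17, adjusted p = 0.930 from limma, and -0.085 without it).

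Of the 15 SIN3 and histone deacetylase subunits, through which MXD proteins and MNT repress, 6 were above 0 and 9 below, with a median of -0.036. The scaffold SIN3A was at 9.54 ± 0.196 and 9.56 ± 0.707 FPKM (SD, n = 3), and its relative SIN3B had a log2 fold change of 0.044 (95% interval -0.13 to 0.22). The deacetylase HDAC1 was at 80.3 ± 3.38 and 74.0 ± 4.29 FPKM, a log2 fold change of -0.12, and ARID4B at 3.09 ± 0.625 and 3.46 ± 0.207 FPKM, a log2 fold change of 0.14, both with an adjusted p-value of 0.930 from limma. The fold change without the unnumbered sh-luc library was -0.085 for HDAC1 and 0.26 for ARID4B. In PRC1.6, the complex of MGA, 6 of 13 genes were above 0 and the median was -0.002. Its subunit PCGF6 was at 13.7 ± 0.947 and 12.3 ± 0.859 FPKM and E2F6 at 23.2 ± 0.256 and 22.3 ± 0.963 FPKM (SD, n = 3), and L3MBTL2 had a log2 fold change of 0.056, or 0.008 without the unnumbered sh-luc library. None of these 3 was called. HDAC1 and HDAC2 are counted in both lists, and WDR5 is counted in PRC1.6 and among the MYC cofactors.

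MYC protein is short-lived, and 12 of the 19 genes known to set its stability were above 0 with a median of 0.03. FBXW7, the ubiquitin ligase subunit that marks MYC for destruction, was at 4.24 ± 0.332 and 4.35 ± 0.371 FPKM (SD, n = 3). PIM1, a kinase induced by STAT5, was at 549.0 ± 99.1 and 622.0 ± 85.3 FPKM (log2 fold change 0.19, and 0.029 without the unnumbered sh-luc library). AURKA, the mitotic kinase, was at 42.9 ± 5.43 and 38.1 ± 4.50 FPKM (log2 fold change -0.17, and -0.073 without it). Among 15 factors known to act on MYC transcription 7 were above 0 and the median was -0.008, with STAT5B at a log2 fold change of 0.11 and FUBP3 at -0.12, which were 0.007 and -0.11 without the unnumbered sh-luc library.

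All 38 textbook MYC targets were tested. Of these, 14 were above 0 and 24 below, with a median of -0.039, or -0.012 without the unnumbered sh-luc library, beside 58% of all genes above 0. The nucleolar protein NCL was at 368.0 ± 24.5 FPKM in sh-luc and 344.0 ± 19.6 FPKM in sh-IUR1, a log2 fold change of -0.096 that was -0.043 without the unnumbered sh-luc library. ODC1, the first enzyme of polyamine synthesis, was at 301.0 ± 14.1 and 295.0 ± 6.94 FPKM, and CAD, which begins pyrimidine synthesis, at 57.9 ± 7.54 and 60.9 ± 1.87 FPKM (SD, n = 3). SLC7A5, an amino acid transporter that the integrated stress response also controls, was at 88.62, 191.46 and 176.07 FPKM in sh-luc and at 198.19, 238.99 and 158.8 FPKM in sh-IUR1, with the unnumbered sh-luc library far below the rest. Its log2 fold change was 0.44 (adjusted p = 0.930 from limma) and 0.093 without that library. RRS1, a ribosome assembly factor, was at 30.6 ± 3.15 and 27.2 ± 1.08 FPKM, a log2 fold change of -0.16, and -0.096 without the unnumbered sh-luc library. Promoter windows were found for 30 of the targets, and 14 of them (46.7%) held an E-box, beside 12.9% of the 9939 tested genes with a window.

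Of the 11 genes known to be repressed by MYC 10 were tested, with 8 above 0, 2 below and a median of 0.13, which was 0.009 without the unnumbered sh-luc library. NDRG1, a stress and differentiation gene, was at 0.83, 0.99 and 0.97 FPKM in sh-luc and at 1.3, 1.28 and 1.14 FPKM in sh-IUR1. All sh-IUR1 values were above all sh-luc values, as for 4.04% of all genes. Its log2 fold change was 0.22 (standard error 0.078), adjusted p = 0.930 from limma, and it was 0.18 without the unnumbered sh-luc library. In the other lists RBBP4 (histone deacetylase subunits), TFDP1 (PRC1.6) and NME1 (textbook MYC targets) went the other way. All their sh-IUR1 values were below all their sh-luc values, as for 3.03% of all genes. NDRG2 was at 33.8 ± 2.23 and 31.4 ± 1.25 FPKM, a log2 fold change of -0.099, and -0.14 without the unnumbered sh-luc library.

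**Figure D4:**
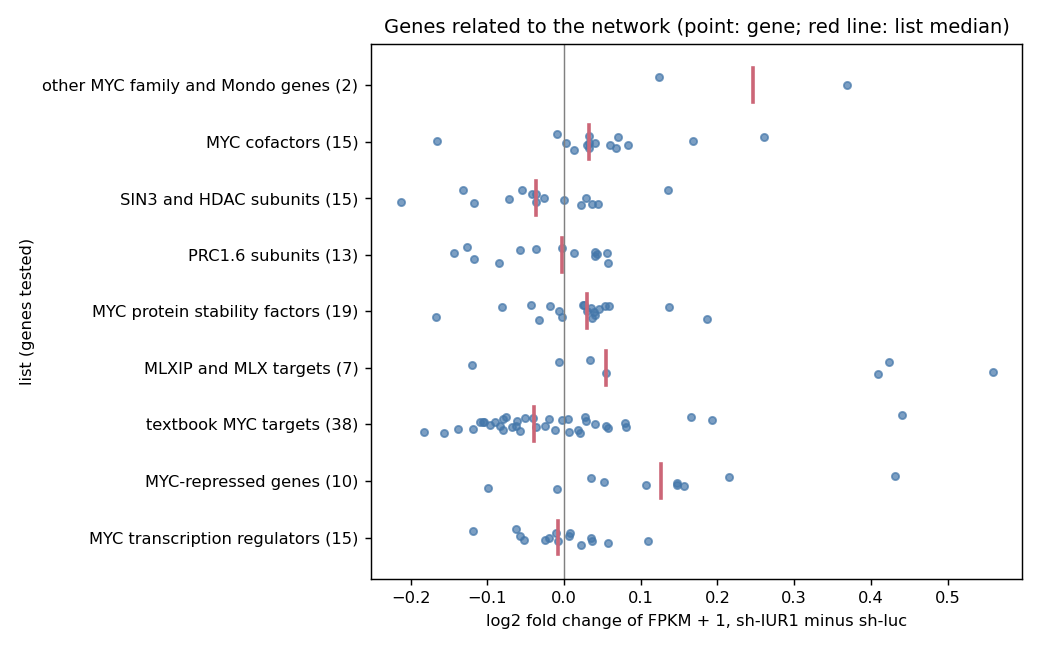
Log2 fold change of FPKM + 1, sh-IUR1 minus sh-luc, of each tested gene (blue points, spread vertically for view) in the lists of genes related to the network, with the list median in red and the number of genes tested in brackets. The list medians run from -0.039 for the textbook MYC targets to 0.25 for the pair MYCL and MLXIPL, and 0 points were called.

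The genes whose pattern over the 6 libraries was most like that of MYC were found by the mean absolute difference in log2(FPKM + 1), each gene centred on its own mean. Candidates averaged 1 FPKM or more and passed a floor on the SD of log2(FPKM + 1), set from that of MYC. MAX varied too little to pass it. Among 8424 candidate genes the nearest were GPSM1, a regulator of G proteins (0.0111), the protease BMP1 (0.0121), PIK3CD, the delta catalytic subunit of PI3-kinase (0.0129), CYB561D1 (0.0130) and CCDC9 (0.0135), where the median candidate was at 0.112. GPSM1, for example, was at 8.19, 10.33 and 10.19 FPKM in sh-luc and at 10.56, 10.73 and 10.09 FPKM in sh-IUR1, low in the unnumbered sh-luc library and level elsewhere. In all, 825 genes were within 0.05 of MYC, so the pattern is a common one in these libraries. Of the other members among the candidates, MLXIP was the nearest to MYC, at 0.0313 and rank 146, followed by MXD1 at 0.0413 and MNT at 0.0485, while MXD3 was at 0.170.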

How the data were processed

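Reads had been cleaned before alignment to the human genome (hg38), and per the methods the authors used samtools v0.1.19 to obtain RPKM. The aligner, the annotation and any filter are not given in the sources used here. The deposited values are FPKM with 2 decimals. Cluster numbers, memberships and standardised values stand beside them and were not used. Of 12486 genes, 0 had a standard deviation under 0.05 FPKM over the 6 libraries, so steadier genes are outside every count.

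Entrez identifiers were matched to RefSeq GRCh38.p14 symbols (12363 genes). Genes averaging at least 0.1 FPKM (12276) were fitted as log2(FPKM + 1) with limma 3.58.1 (R 4.3.3, eBayes with a trend) on the group alone, p-values were adjusted by Benjamini-Hochberg, and the fit was tested on simulated data. FPKM are not counts, so no count test was used, and fold changes understate those of low genes. Tables and plots were made with Python 3.11.15 (pandas 2.3.3, numpy 2.4.6, scipy 1.17.1) and matplotlib 3.10.9.

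All members are named. In each list the gene with the smallest p-value in each direction (mean of at least 1 FPKM) and some fixed genes are named, with the 5 genes most like MYC. Members and lists were chosen with earlier results of these data known. Alternatives changed the pseudocount (0.1), the filter (none, or a mean of 1 FPKM), the scaling (median ratio or quantile) or the trend, added the replicate number as a block, dropped moderation and adjustment, or left out each library.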

Additional observations from a re-analysis of the deposited data

How the results depend on the processing

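Under every alternative with adjusted p-values limma called 0 genes higher and 0 lower, and 0 members passed the threshold. The 9 settings that alter fold changes (the pseudocount, the scalings and each library left out) gave 90 values for the members, of which 84 kept their sign and 6 reversed (MXD1, MNT and MGA, each near 0, and the cause was not tested). MNT had a log2 fold change of -0.016 after quantile normalization. Leaving out one library gave -0.011 to 0.082 for MXD1, -0.054 to 0.065 for MNT, -0.042 to 0.077 for MGA, 0.015 to 0.17 for MYC, -0.078 to -0.04 for MAX, 0.00021 to 0.19 for MXI1, -0.21 to -0.06 for MXD3, 0.036 to 0.13 for MXD4, -0.17 to -0.061 for MLX and 0.011 to 0.20 for MLXIP. The value nearest 0 came without the unnumbered sh-luc library for MYC, MAX, MXI1, MXD1, MXD3, MLX and MLXIP. The farthest came without sh-luc r2 for MYC, MXD1, MXD3, MNT and MLXIP. The count at an unadjusted p-value under 0.05, 325 here, was between 156 and 854 with one library left out: 156 without the unnumbered sh-IUR1 library, 712 without sh-IUR1 r2 and 854 without sh-luc r1. Without moderation or adjustment, the linear model put 207 genes higher and 137 lower. Of the 325 genes 203 were higher and 122 lower, and with quantile normalization the split was 134 and 178, with median-ratio scaling 182 and 164. With the replicate block the count at an unadjusted p-value under 0.05 was 533, 0 genes were called, and the log2 fold changes of the members did not move. Libraries with the same number did not deviate together throughout, with a correlation of 0.0444 (unnumbered), 0.385 (r1) and -0.34 (r2). Pairs of unlike number reached farther in both directions. The unnumbered sh-luc library had a correlation of -0.549 with sh-IUR1 r1 and of 0.523 with sh-IUR1 r2. With 3 libraries per group these values cannot decide whether the libraries were paired, and the labels do not say. Of 108 list medians 101 moved by less than the spread between libraries. The replicate block and the setting without a filter left every list median as it was, so part of that count was fixed in advance. Among these 101, the median of MYCL and MLXIPL fell from 0.25 to 0.063 without the unnumbered sh-luc library. That of PRC1.6 changed sign, from -0.002 to 0.023 without sh-IUR1 r1. The unknown depth limits the members of low level most.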
